A study of Mus musculus with 502 samples.

Results

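Of the 46603 gene rows in the count table, 89 carry the names of nuclear genes of the respiratory chain and of ATP synthase. They were chosen by name alone: every gene whose symbol starts with Ndufa, Ndufb, Ndufc, Ndufs or Ndufv, with Sdha to Sdhd, with Uqcr, with Cox4 to Cox8 or with Atp5, leaving out Ndufaf names and names that contain a dot. By complex, 38 belong to complex I, 4 to complex II, 8 to complex III, 18 to complex IV and 15 to complex V, the ATP synthase. The same pattern also took 6 names that are not subunits of the complexes: Sdhaf1 to Sdhaf4, which are assembly factors of complex II, and Atp5s and Atp5sl.

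The respiratory chain passes electrons from NADH and succinate to oxygen and pumps protons across the inner mitochondrial membrane, and ATP synthase lets the protons flow back to make ATP. Complexes I, III, IV and V are built from subunits of 2 genomes: a core set of 13 proteins is encoded in mitochondrial DNA, and all others, with the whole of complex II, are encoded in the nucleus and imported. Among leukocytes, lymphocytes and macrophages rely on these complexes to a varying degree with their state of activation, while mature neutrophils hold few mitochondria and make most of their ATP by glycolysis.

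The cells were Cd45+ (Ptprc-expressing) leukocytes sorted one by one from the kidneys of CD1 mice (outbred, wild type, about 3 weeks old). Kidneys were dissociated fresh or after being kept whole and unperfused in the cold in HTS-FRS, a preservative for transplant organs, for 6 hours or 1, 2, 3 or 4 days, and only propidium iodide-negative cells were sorted. By the methods, the tissue for a timepoint was pooled from the same mouse (both kidneys for the earlier times, a part of a kidney for the last ones), and no label names an animal. Each timepoint of a pool was therefore taken as 1 sample, single cells do not count as replicates, and tests were left out. Cell labels carry a pool number: pool IM793 held 75 fresh cells, 76 cells of 6 hours and 78 cells of day 2. Pool IM834 held 81 fresh cells, 75 cells of day 1, 82 cells of day 3 and 19 cells of day 4, and pool IM790 held 14 day 4 cells. The last 2 cells of day 4 were in pool IM793. Within a pool, timepoint and mouse cannot be told apart, and only fresh and day 4 cells occur in more than one pool. Preserved cells were therefore compared with cells of their own pool, and the fresh cells of pools IM793 and IM834 with each other.

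Total counts on genes ran from 1759 to 1895431 per cell with a median of 695188, and 8 of the 502 cells had under 100000. Ptprc was read in 80.5% to 97.5% of the cells in the groups of 75 or more cells but in 42.1% of the day 4 cells of pool IM834. Markers of kidney epithelium, a tissue rich in mitochondria, summed to between 0.120 and 141.9 CPM (counts scaled to a total of 1000000) in the groups, and their part in the values below was not tested.

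To show the DNA in front of these genes, RefSeq promoters (250 bases before to 50 after the annotated start, build GRCm38.p6) were matched for 74 of the 89 genes. The letters GCGCATGCG, the core of the site of NRF1 (a transcription factor known for its sites in respiratory chain genes), were searched on both strands. They stood in 8 of the 74 promoters (10.8%) and in 1.81% of all 27025 promoters. With any base in the middle (GCGCANGCG, which includes the first form), the shares were 28.4% and 6.47%. The letters CCGGAAG of the ETS family, to which the activator GABP belongs, were in 24.3% of the members' promoters and 9.12% of all, CCAAT in 43.2% and 37.9%, and TATAAA in 10.8% and 14.2%. The median promoter of the set held 19.5 CG pairs, against 7 over all genes. A match is a description of the letters only and shows no binding. In 3 of the 8 genes the NRF1 letters lay before the RefSeq start and outside all GENCODE exons, and those stretches are shown 5′ to 3′ on the strand of the gene, with the matched letters in capitals.

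Atp5l (subunit g of ATP synthase, chr9:44920873-44920992, minus strand): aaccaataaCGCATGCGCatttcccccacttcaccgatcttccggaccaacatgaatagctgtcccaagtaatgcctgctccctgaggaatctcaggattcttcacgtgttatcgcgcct
Cox6a1 (subunit 6a of complex IV, chr5:115349010-115349129, minus strand): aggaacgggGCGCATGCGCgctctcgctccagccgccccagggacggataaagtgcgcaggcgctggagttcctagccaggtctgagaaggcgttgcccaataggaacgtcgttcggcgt
Ndufa11 (accessory subunit of complex I, chr17:56717686-56717761, plus strand): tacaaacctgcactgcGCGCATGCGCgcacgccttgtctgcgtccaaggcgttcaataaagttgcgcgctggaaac

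In Cox6a1 and Ndufa11 the match ran over 10 bases, because these letters read almost the same on both strands. Among the stretches shown, the match lay nearest to the start in Ndufa11, 60 bases before it.

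In fresh cells the 7 genes with the highest levels belonged to complexes IV and V. Levels between genes were compared as CPM per kilobase of annotated exons over all fresh cells. Cox8a, the smallest subunit of complex IV, had 414 CPM per kilobase. Cox4i1, the regulatory subunit 4 of complex IV, followed at 320, and Atp5b, the catalytic beta subunit of ATP synthase, at 290. The next were Cox6b1 at 243.7, Cox6a1 at 227.03, Atp5a1 (the alpha subunit) at 217.3 and Atp5c1 (the gamma subunit, the rotating stalk) at 210 CPM per kilobase. These 7 genes held 30.6% of the members' counts in fresh cells. The order differed between the 2 fresh samples: in pool IM793 Cox8a stood highest at 539 CPM per kilobase, and in pool IM834 Atp5b did at 316, followed by Cox4i1 at 298, Atp5a1 at 277 and Cox8a at 275. Neighbours in this order were not told apart. By the median over the genes of a complex the order was another. It was 99.3 CPM per kilobase for complex III, 76.8 for complex II, 59.3 for complex V, 57.01 for complex I and 55.5 for complex IV. In complex IV, 7 of the 18 genes were read in under 10% of fresh cells. The highest of complex I were Ndufa2 and Ndufa1 at 162.9 and 157.4, of complex III Uqcrfs1, the Rieske iron-sulfur protein, at 154.7, and of complex II Sdhb, its iron-sulfur subunit, at 91.8. The catalytic core subunits of complex I were lower, with Ndufv1, which binds NADH, at 39.3 and Ndufs1 at 11.8. The length of a gene here is the union of all its annotated exons, so genes with long rare transcripts, such as Atp5l at 7.92, are placed low by it. The 4 genes Sdhaf1 to Sdhaf4 ran from 2.48 to 22.4 CPM per kilobase.

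**Figure D1:**
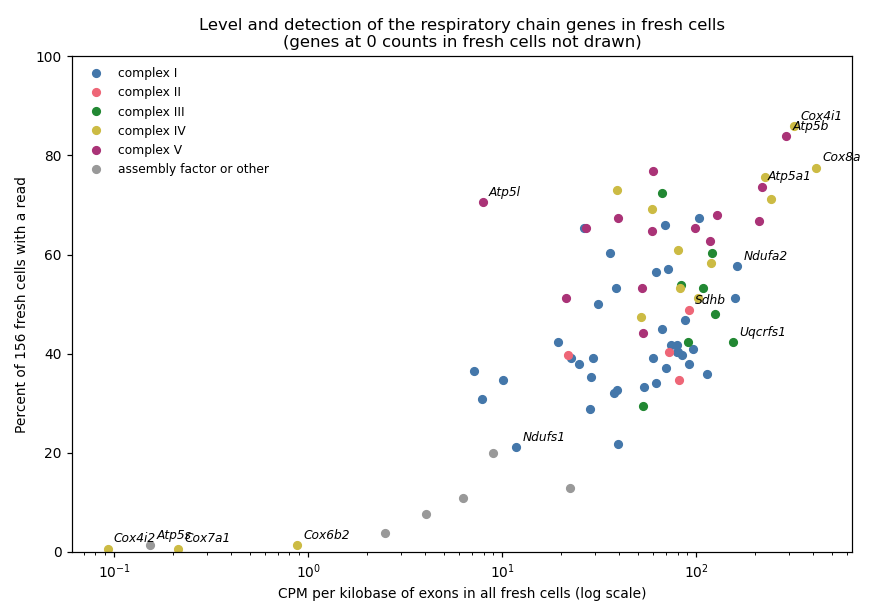
Level of each gene in all fresh cells, as CPM per kilobase of exons on a log axis, against the percent of fresh cells with at least 1 read, coloured by complex. Cox8a, Cox4i1 and Atp5b lie at the upper right, between 77.6% and 85.9% of cells, and the tissue-restricted isoforms of complex IV lie at the lower left.

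How many cells gave a read of a gene followed the same order loosely. Cox4i1 was read in 405 of all 502 cells (80.7%, exact 95% interval 76.9 to 84.04), more than any other member. Atp5b followed with 392 cells and Cox8a with 353. These intervals, and all others here, cover counting error only, because reads here carry no molecular identifiers and several can stem from 1 molecule. In fresh cells the most widely read gene of complex I was Ndufa4 (67.3% of cells), a protein named for complex I that is also found with complex IV. For complex II it was Sdhb (48.7%), and for complex III Uqcrq, a small subunit next to cytochrome b (72.4%). Per complex, the median share of fresh cells with a read was 39.4% for the 38 genes of complex I, 40.1% for complex II, 50.6% for complex III, 52.2% for complex IV and 65.4% for complex V. Of the 89 genes, 38 were read in at least 50% of fresh cells, 14 of them from the 15 genes of complex V, and 11 were read in under 10%.

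Most genes read in few or no cells were isoforms of complex IV known from other tissues. Cox8b (heart and skeletal muscle), Cox8c (testis) and Cox7b2 (testis) had 0 counts in all 502 cells, which allows a share of up to 0.598% of cells with a read by a floor of 3 cells (exact upper limit 0.732%). Their partners Cox8a and Cox7b, by contrast, were read in 70.3% and 47.4% of cells. Cox4i2, a form of subunit 4 of lung and of oxygen sensing, had 7 counts in 1 cell against 179020 counts of Cox4i1. The muscle forms Cox6a2 and Cox7a1 were read in 2 and 4 cells, and the testis form Cox6b2 in 13. Over all cells Cox6b2 made up 2.87% of the summed counts of Cox6b1 and Cox6b2. Ndufa4l2, known as a target of hypoxia signalling, was read in 1 cell with 83 counts, against 53.2% of all cells for Ndufa4. In these leukocytes the measured chain was thus mostly that of the widely expressed isoforms. In the family of subunit 7a, Cox7a2 was read in 48.6% of cells and Cox7a2l, which joins complexes III and IV into supercomplexes, in 48.2%, with 34.5% and 65.4% of the family's counts.

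Subunit c, the ring protein of ATP synthase, is encoded by 3 genes, Atp5g1, Atp5g2 and Atp5g3, whose mature proteins are the same and whose import signals differ. They shared the counts almost evenly over all cells, with 31.5%, 33.02% and 35.5%. At least 1 of the 3 was read in 371 cells and the others gave none. The mix varied with sample and cell class. In the fresh cells of pool IM793, Atp5g1 held 42.2% of the counts of the 3 genes and Atp5g3 32.1%, while in the fresh cells of pool IM834 Atp5g3 held 56.4% and Atp5g1 25.8%. At 6 hours and day 2, Atp5g2 held the most, with 43.7% and 42.6%. At days 1, 3 and 4 of pool IM834, Atp5g3 held 46.1%, 34.3% and 57.1%, and 99.3% of its day 4 counts came from 1 cell. At day 3 Atp5g1 held more, with 38.1%. By cell class, with gates explained below, Atp5g1 was 23.5% of the mix in cells gated by Cd3e and 47.9% in cells gated by S100a8, but these gates drew on different samples. Within the fresh cells of pool IM793 it was 31.3% (9 cells) and 45.2% (21 cells), and at 6 hours 17.5% (19 cells) and 21.2% (16 cells).

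Summed over all members, the share of gene counts lay between 0.814% and 1.26% in all groups. It was 1.13% in the fresh cells of pool IM793, 1.18% at 6 hours and 1.12% at day 2. In pool IM834 it was 1.08% in fresh cells, 0.814% at day 1, 1.01% at day 3 and, from 19 cells, 1.10% at day 4. In pool IM790, the 14 day 4 cells, which have no fresh cells of their pool, had 1.26%. Day 1 was the lowest of the groups. In log2 ratios of CPM to fresh cells of the pool, the sum was at 0.06 for 6 hours, -0.01 for day 2, -0.41 for day 1, -0.10 for day 3 and 0.03 for day 4, and the fresh cells of pool IM793 were at 0.07 against those of pool IM834. In these bulk sums, fewer cells of a type and less RNA per cell cannot be told apart.

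Single cells spread far more widely than these sums. The share ran from 0.00814% to 2.23% in the fresh cells of pool IM793 with quartiles of 0.851% and 1.35%, and from 0.410% to 2.09% in those of pool IM834 with quartiles of 0.833% and 1.36%. The medians were 1.08%, 1.17% and 1.10% for fresh, 6 hours and day 2 in pool IM793. In pool IM834 they were 1.03%, 0.751%, 0.910% and 0.969% for fresh, day 1, day 3 and day 4. Each median lay within the quartiles of its fresh cells except that of day 1, which lay below the lower quartile. The groups overlapped in every case.

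**Figure D2:**
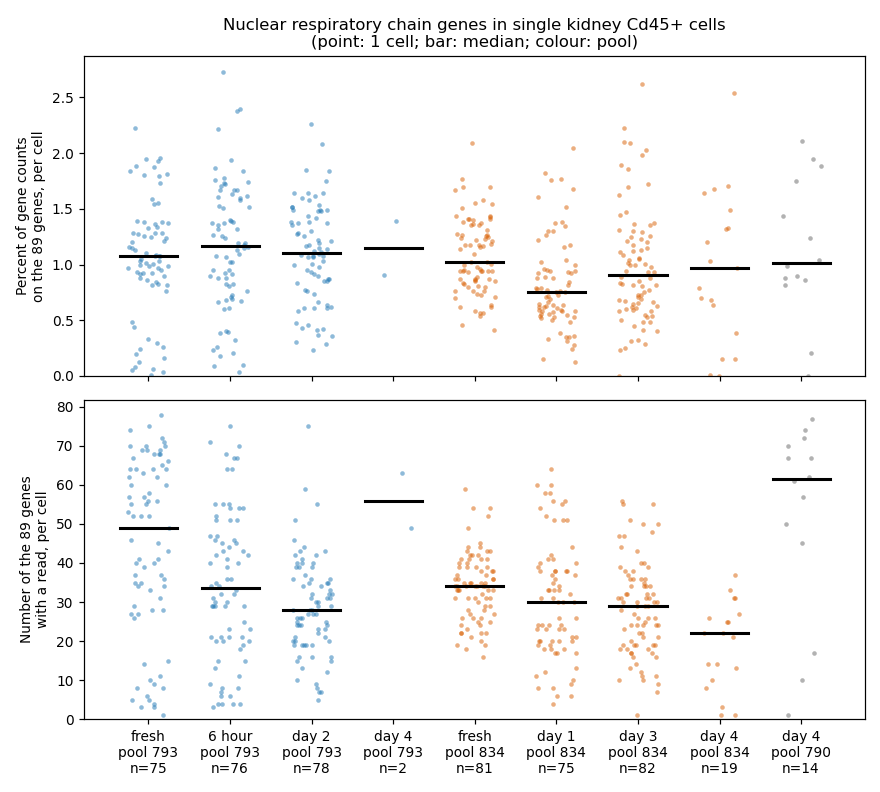
Percent of a cell's gene counts on the 89 genes (top) and number of the 89 genes with at least 1 read (bottom), 1 point a cell, with bars at the medians and colours by pool. The percent is similar in all groups except day 1, while the median number of genes read runs from 49 in fresh cells of pool IM793 to 28 at day 2 and from 34 to 22 at day 4 in pool IM834, and is 61.5 in the day 4 cells of pool IM790.

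The number of members read per cell behaved differently from their share of counts. The median was 49 in the fresh cells of pool IM793, 33.5 at 6 hours and 28 at day 2. It was 34 in the fresh cells of pool IM834, 30 at day 1, 29 at day 3 and 22 at day 4, and 61.5 in the day 4 cells of pool IM790. In each of the 5 preserved groups of pools IM793 and IM834 with 19 or more cells the median was lower than in fresh cells of the pool, also at 6 hours and days 2, 3 and 4, where the log2 ratio of the summed share to fresh was 0.06, -0.01, -0.10 and 0.03. The 2 day 4 cells of pool IM793 had a median of 56. After thinning each cell to 100000 counts, which left out at most 2 shallower cells a group, the medians were 47, 34 and 25 in pool IM793 and 33, 29, 26 and 21 in pool IM834. The median number of all genes read per cell was also lower than fresh in pool IM793, at 2649 in fresh cells, 2136 at 6 hours and 1731 at day 2. In pool IM834 it was 1843, 1966, 1672.5 and 1130 in the same order as above, so that at day 1 it lay above fresh while the members lay below. Its part in the members' detection was not tested.

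Over cells of one group with at least 100000 counts, the share of complex I followed that of complex V with a Spearman rho of 0.69 over 74 fresh cells of pool IM793 and 0.71 over 74 cells of 6 hours, but of 0.20 over 80 fresh cells of pool IM834. These are descriptions over cells that share library and depth. Between the members' share and the number of all genes read, rho was 0.75 in fresh cells of pool IM793 and 0.67 at 6 hours, but ran from -0.14 to 0.21 at day 2 and in the groups of pool IM834. Fresh cells of pool IM793 included 14 cells with fewer than 20 members read, 13 of them in the S100a8 gate.

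The mitochondrially encoded partners were higher at 6 hours and day 2 of pool IM793, where the sum of the nuclear genes stayed near fresh. The 13 mitochondrial subunit genes held 0.836% of counts in the fresh cells of pool IM793, 1.21% at 6 hours and 1.75% at day 2. In log2 terms the sums were 0.53 and 1.07 above the fresh cells, against 0.06 and -0.01 for the nuclear set. In pool IM834 they held 1.71% in fresh cells, 1.38% at day 1, 1.58% at day 3 and 2.45% at day 4, log2 ratios of -0.31, -0.11 and 0.52, against -0.41, -0.10 and 0.03 for the nuclear set. Both sets thus lay below fresh at days 1 and 3, and the mitochondrial set lay above it at day 4. Between the fresh cells of the 2 pools the log2 ratio of the sums was -1.03 for pool IM793 over pool IM834, but the single mitochondrial genes went both ways there, with 5 of 12 past 2-fold higher and 4 lower. Within groups the rank correlation of both shares over cells lay between -0.45 (17 cells of day 4, pool IM834) and 0.41 (74 fresh cells, pool IM793). In pool IM793 the mix of gates differed. For fresh, 6 hours and day 2 the mitochondrial share was 1.39%, 1.44% and 1.77% in Cd3e-gated cells (9, 19 and 16 cells). It was 0.780%, 1.18% and 1.28% in Csf1r-gated cells (31, 19 and 14) and 1.67%, 1.17% and 1.34% in C1qb-gated cells (7, 3 and 6). S100a8-gated cells, at 0.303% in fresh cells, numbered 21 there and 1 at day 2. Cd79a-gated cells, at 2.07% at day 2, numbered 30 there and 0 in fresh cells. The part of the mix was not tested.

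**Figure D3:**
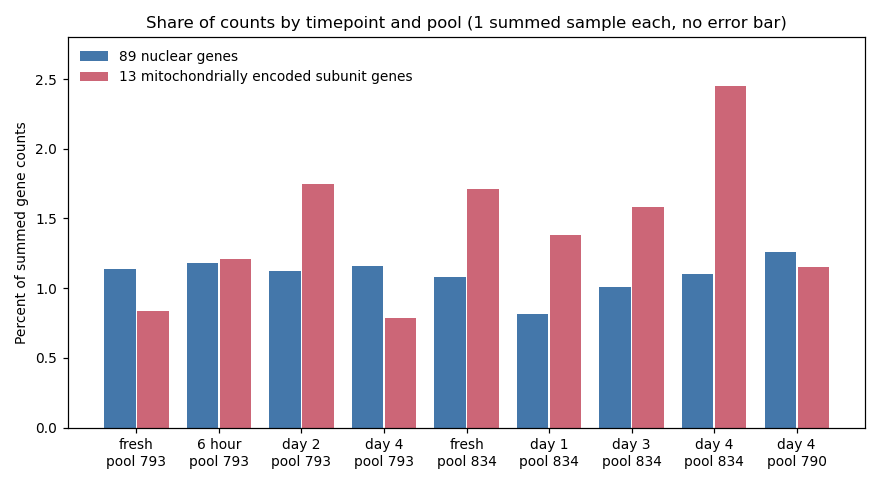
Percent of the summed gene counts on the 89 nuclear genes and on the 13 mitochondrially encoded subunit genes, by timepoint and pool, 1 sum a bar without replicates. The nuclear bars lie between 0.814% and 1.26% and the mitochondrial bars between 0.783% and 2.45%.

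For single genes, the log2 ratio of CPM between summed cells was taken for genes that gave a read in 20% or more of cells when the 2 groups were joined, and a ratio past 2-fold in either direction was counted. At 6 hours, 76 members passed this filter, with 2 past 2-fold higher (2.63%, against 10.1% of all genes that passed) and 2 lower (2.63%, against 8.35%). Their median log2 ratio was 0.02, and that of all 4167 genes was 0.10. At day 2, 2 of 75 were higher and 3 lower, against 15.8% and 16% of all genes. Since the filter joins both groups, a gene can pass it through the group where it is high alone: 2 of these 3, Ndufb6 and Uqcrfs1, were read in under 20% of the day 2 cells. From 6 hours to day 2, 0 of 73 were higher and 1 was lower, against 6.1% and 8.92%. These counts come from sums without replicates and move with the scaling. With TMM scaling they were 0 higher and 2 lower at 6 hours (6.65% and 11.1% of all genes) and 1 and 9 at day 2 (10.5% and 20.1%). With DESeq2 size factors they were 0 and 2 (7.13% and 10.6%), and 1 and 6 (11.8% and 19%). When each gene was taken as its mean log2(rpm + 1) over cells, where rpm is the CPM of 1 cell, they were 0 and 21 at 6 hours (2.5% and 24% of all genes) and 0 and 57 at day 2 (6.22% and 45.6%), a scale on which cells without a read count as 0.

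The 4 genes past 2-fold at 6 hours were Ndufa3 and Cox7a2l on the high side and Ndufb6 and Atp5g1 on the low side. Cox7a2l stood at 104.3 CPM in fresh cells, 212.1 at 6 hours and 248.7 at day 2, log2 ratios of 1.02 and 1.25. Ndufa3, an accessory subunit of complex I, stood at 36.5, 78.7 and 73.6 CPM, log2 ratios of 1.11 and 1.01. Both were read in no more cells than in the fresh group: Cox7a2l in 41 of 75, 36 of 76 and 40 of 78 cells, and Ndufa3 in 46, 45 and 40. Ndufb6, another accessory subunit of complex I, stood at 108.6, 42.5 and 48.7 CPM, log2 ratios of -1.35 and -1.16, and was read in 40, 19 and 14 cells. Atp5g1 stood at 151.9, 70.6 and 86.2 CPM, with a log2 ratio of -1.10 at 6 hours. At day 2, Uqcrfs1 (231.9 in fresh cells to 107.9 CPM, log2 ratio -1.10) and Cox5a, subunit 5a of complex IV (139.4 to 65.2 CPM, log2 ratio -1.10), were also past 2-fold lower. The 6 hour and day 2 ratios share their fresh cells, and no more than 19.3% of the counts of any of these 6 genes came from 1 cell in these groups. From 6 hours to day 2, Ndufa7 was lower (124.7 to 60.4 CPM), Ndufb9 was at a log2 ratio of -0.96, and Ndufa10 and Ndufab1, the acyl carrier protein of mitochondria, were at 0.93 and 0.92.

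By complex, the log2 ratios of the sums to fresh at 6 hours and day 2 were 0.04 and -0.04 for complex I, -0.10 at both times for complex III, and 0.01 and 0.02 for complex V. Complex II was higher, at 0.47 and 0.38. Its flavoprotein Sdha stood at 171.1 CPM in fresh cells, 326 at 6 hours and 315 at day 2. Complex IV was at 0.12 at 6 hours and at -0.22 at day 2. At day 2, 10 of its 11 genes that passed lay below fresh, and Cox7a2l was the exception. For day 2 no share of all genes below fresh is given, but their median log2 ratio was 0.09. The fresh cells used here also stood 0.54 above those of pool IM834 in complex IV on the log2 scale.

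In pool IM834, most members lay below fresh at day 1. Of 73 members that passed, 60 lay below fresh and 13 above, with a median log2 ratio of -0.30, against -0.17 over all 3036 genes, of which 58.3% lay below fresh. Past 2-fold were 0 higher (11.6% of all genes) and 3 lower (4.11%, against 14.5% of all genes). Below fresh lay 31 of 35 genes of complex I, 13 of 15 of complex V and 9 of 11 of complex IV, but 5 of 8 of complex III and 2 of 4 of complex II. By sums, complex II was lowest at -0.63, with Sdha at 439 CPM in fresh cells and 234.1 at day 1 and Sdhb at 213.96 and 121.9. The sum of complex V was at -0.48, with Atp5b at 1338 CPM in fresh cells and 764 at day 1 and Atp5a1 at 870 and 739. Cox4i1 stood at 462 and 309 CPM. The 3 genes past 2-fold lower were Ndufv3, a small subunit of the NADH-binding module (109.3 to 38.9 CPM), Ndufa11 (88.7 to 40.1 CPM) and Atp5g3 (115.5 to 52.7 CPM). In Ndufa11, 32.4% of the day 1 counts came from 1 cell. The largest ratios upward were those of Cox7b and Atp5k, at 0.76 and 0.65.

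The classes of cells differed strongly between these groups, and their part in the day 1 value was not tested. Cells gated by Cd3e, the class with the highest members' share, were 43 of 81 in fresh cells of pool IM834 and 7 of 75 at day 1, and 6 day 1 cells but 0 fresh cells were gated by S100a8. Within gates, the log2 ratio of day 1 to fresh was -0.20 in Cd3e-gated cells (7 and 43 cells), -0.23 in Cd79a-gated cells (14 and 17), -0.46 in C1qb-gated cells (15 and 5) and -0.06 in Csf1r-gated cells (19 and 8). By mean rpm over cells they were -0.07, -0.20, -0.46 and -0.17 in the same order. The medians of Cd3e-gated cells were 1.17% both at day 1 and in fresh cells. These ratios rest on few cells, and what they hold of the -0.41 of the whole was not tested.

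At day 3, 38 of 73 members lay above fresh and 35 below, with a median log2 ratio of 0.03 against -0.15 over all genes, of which 57% lay below fresh. Past 2-fold were 1 higher (12.6% of all genes) and 3 lower (15.8% of all genes), of which Uqcrfs1 was read in under 20% of the day 3 cells. Uqcrb, a small subunit of complex III, was higher at 51.4 CPM in fresh cells and 104.7 at day 3, while Ndufb4 was at a log2 ratio of 0.89. Lower were Ndufv3 (109.3 to 41.004 CPM, log2 ratio -1.42), Uqcrfs1 (187.2 to 85.4 CPM) and Cox7a2l (201.5 to 96.3 CPM). Cox7a2l thus lay on the low side in pool IM834 and on the high side in pool IM793, where its fresh level was 104.3 CPM. The summed T cell markers differed in the same direction, from 695 CPM in fresh cells to 2330 at 6 hours and 1751 at day 2 in pool IM793 and from 3797 to 617 at day 3 in pool IM834, and their part in this value was not tested. Within Cd3e-gated cells, Cox7a2l stood at 165.7 (9 cells), 379 (19) and 388 CPM (16) in pool IM793 for fresh, 6 hours and day 2, and at 313 (43), 384 (7) and 216.6 (7) in pool IM834 for fresh, day 1 and day 3. At day 1 the value of all cells was 127.3 CPM, below fresh, while that of the Cd3e-gated cells was above. Ndufv3 was low at day 1 and day 3 of pool IM834, which share their fresh cells, while in pool IM793 it was at 90.5, 121.6 and 87.9 CPM. By sums, complex II was at -0.41, complex V at -0.20, complex III at -0.16 and complexes I and IV at 0.04 and 0.02.

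The day 4 cells of pool IM834 gave wider ratios for single members. Only 19 cells were summed and single cells carried much of a gene's counts, and their part in this was not tested. Past 2-fold were 12 of 71 members higher and 17 lower, against 12.4% and 39.5% of all genes. Of these 17, 12 were read in under 20% of the day 4 cells and so passed the filter only through the fresh cells, where they are high, and the number lower is in part set by the filter. Against day 3 they were 8 and 14 of 62, against 10.6% and 28.5%, and 8 of these 14 passed in the same way through the day 3 cells. With DESeq2 size factors the numbers were 18 higher and 14 lower against fresh cells (20% and 32.8% of all genes), and 19 and 12 against day 3 (19.5% and 23%). Uqcrc2, a core protein of complex III, was read in 0 of 19 cells (exact upper limit 17.6%) and stood at 160 CPM in fresh cells, at least 443-fold higher against a floor of 3 counts in the day 4 sum. Ndufa11 had 2 counts in the day 4 sum and 4025 in that of fresh cells, a ratio of fresh to day 4 of 368 with a counting interval of 101.9 to 3044, and of day 3 to day 4 of 244.1 (67.5 to 2017). Ndufv1, which did not pass the filter, had 0 counts at day 4 and 6578 in fresh cells, at least 401-fold higher against the same floor. In Ndufb8, at 168.5 CPM in fresh cells, 264.9 at day 3 and 19.03 at day 4, 90.5% of the day 4 counts came from 1 cell. Higher were Atp5k, subunit e of ATP synthase (11.8 CPM fresh, 14.5 day 3, 43.5 day 4), Ndufc2 (42.5, 65.8 and 134.6 CPM), Ndufc1 (32.6, 20.6 and 101.8 CPM) and Ndufb9 (93.1, 55.6 and 231.7 CPM). Of the widely read genes, Cox4i1 stood at 462, 491 and 652 CPM for fresh, day 3 and day 4 and Atp5b at 1338, 993 and 1977 CPM. Markers of red cells and platelets summed to 715 CPM at day 4, against 49.1 in fresh cells of the pool and 290 at day 3. T cell markers summed to 3797 CPM in fresh cells and 89.2 at day 4, and C1q macrophage markers to 3782 and 24578 CPM, while 43 of 81 fresh cells and 0 of 19 day 4 cells were gated by Cd3e. The part of these shifts in the day 4 values was not tested.

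The fresh cells of the 2 pools also differed in single members. Of 75 members that passed, 12 were past 2-fold higher in pool IM793 (24.9% of all genes) and 2 lower (16.3% of all genes). Complex IV was higher by 0.54 on the log2 scale, with 10 of 11 genes above. Among them were Cox7b at 138.2 against 57.99 CPM and Cox6b1 at 226.8 against 112.1. The share of all genes above is not given, and the median log2 ratio over all 3854 genes was 0.06. Complex II was at -0.55, with Sdha at 171.1 in pool IM793 and 439 CPM in pool IM834. Ndufv1 stood at 66.4 and 145.04 CPM. The widest gaps were those of Ndufb4, at 30.7 and 6.48 CPM, and Atp5k, at 50.9 and 11.8 CPM. In the fresh cells of pool IM793, 0 were gated by Cd79a, 21 by S100a8 and 9 by Cd3e, and in those of pool IM834 the numbers were 17, 0 and 43, so that the mix of cells differed along with the pool. Within Csf1r-gated cells the sum was at 0.54 (31 and 8 cells), within Cd3e-gated cells at 0.18 (9 and 43 cells) and within C1qb-gated cells at 0.31 (7 and 5 cells).

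**Figure D4:**
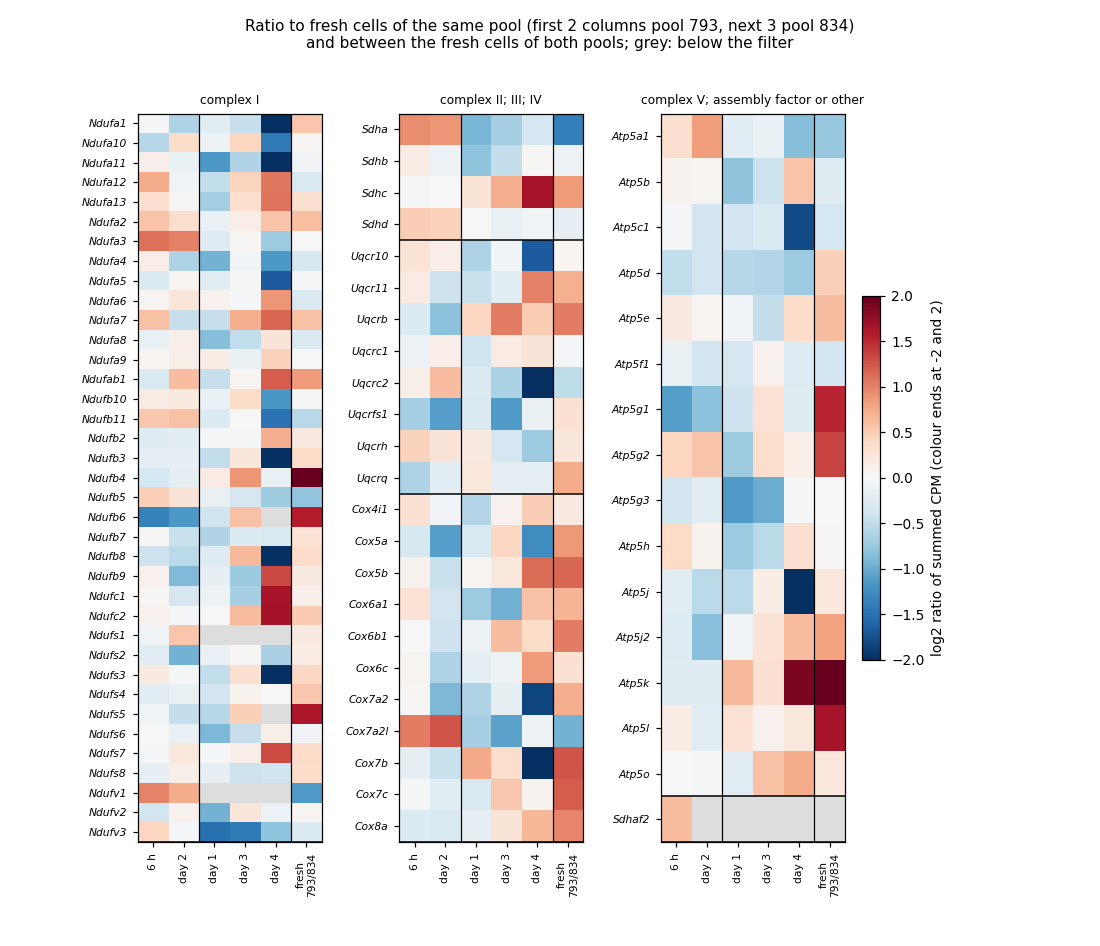
Log2 ratio of summed CPM for each member that passed the filter, by complex, for preserved over fresh cells of the same pool and for fresh cells of pool IM793 over those of pool IM834; red is higher, blue lower, and grey did not pass. The day 1 column is mostly blue, and the day 4 column, from 19 cells, holds the deepest colours in both directions.

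Across the 5 ratios of preserved to fresh cells, 71 members passed each time. Of these, 5 lay below fresh in all 5 (Atp5c1, Atp5d, Atp5g3, Ndufa1 and Uqcrfs1) and 0 lay above in all 5. Of all 2032 genes that passed each time, 8.66% lay below fresh in all 5 and 3.89% above. Uqcrfs1 stood at 231.9, 147.1 and 107.9 CPM for fresh, 6 hours and day 2 in pool IM793, and at 187.2, 152.5, 85.4 and 171.2 for fresh, day 1, day 3 and day 4 in pool IM834, where all day 4 counts came from 1 cell. It was read in 36, 29 and 15 cells in pool IM793 and in 30, 24, 15 and 1 in pool IM834. Atp5d, the delta subunit of ATP synthase, stood at 262.5, 186.5 and 201.1 CPM in pool IM793 and at 189.2, 127.4, 125.98 and 113.9 in pool IM834. Comparisons within a pool share their fresh cells, so these 5 ratios are not independent.

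Other genes of the pathway were counted in the same way, where over all genes between 10.1% and 15.8% were past 2-fold higher than fresh and between 8.35% and 16% lower, or 39.5% at day 4. Of 12 genes for cytochrome c, Cyc1, electron transfer flavoprotein, inner membrane carriers and proteins bound to the complexes, 9 or 10 passed the filter against fresh cells; 0 were past 2-fold at 6 hours, 1 was lower at day 2 and 1 at day 1, and 1 went each way at day 3. At day 4, 3 of 9 were higher and 1 lower. Of 17 genes of pyruvate dehydrogenase and the citric acid cycle, 1 of 12 was past 2-fold higher at 6 hours, 0 of 12 at day 2, and 1 of 11 was lower at day 1 and 1 of 10 at day 3. At day 4, 1 of 9 was higher and 2 were lower. Of 42 assembly factors, which include Sdhaf1 to Sdhaf4, at most 9 passed the filter, of which 2 were lower at 6 hours, 3 at day 2 and 1 at day 1, and 1 was higher at day 3. At day 4, 2 of 6 were higher and 1 was lower. None of the 11 regulators of mitochondrial biogenesis, such as Ppargc1a, Nrf1 and Tfam, passed the filter in these comparisons, and their sum lay between 175.3 and 435 CPM in the groups of both pools. Of the 13 mitochondrially encoded subunits, which all passed in pool IM793, 3 were past 2-fold higher at 6 hours and 7 at day 2. In pool IM834, 10 passed and 0 were past 2-fold from fresh at days 1, 3 and 4.

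Cells were then placed in gates by the gene with the highest rpm among 5 genes, if that gene had at least 10 rpm. They were Cd3e (T cell receptor complex), Cd79a (B cell receptor complex) and C1qb (complement of tissue macrophages). The others were Csf1r (receptor of macrophage colony-stimulating factor) and S100a8 (a protein of neutrophils). The gates of Cd79a, C1qb and S100a8 took 76, 73 and 46 cells, those of Cd3e and Csf1r took more, and 72 cells were in none. Each gate was checked with the 7 markers of its class other than the gate gene. All 7 were read in 50% or more of the cells in the gates of Cd3e (T cell markers), Cd79a (B cell markers), C1qb (C1q macrophage markers) and S100a8 (neutrophil markers). In the Csf1r gate this held for 4 of 7 monocyte markers and for 3 of 7 C1q macrophage markers. Monocyte markers also passed in other gates, with Lyz2 and Fcgr1 in the C1qb gate and Lyz2, Plac8 and Itgam in the S100a8 gate, and Ighm, the heavy chain of IgM, was read in 80.8% of C1qb-gated cells. The 3 myeloid gates thus shared marker genes. More than 1 lineage was over the threshold in 21 cells.

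Summed over all samples, Cd3e-gated cells held the largest share of counts on the set among the 5 gates and S100a8-gated cells the smallest. Over all cells the sums were 1.32% in the Cd3e gate, 1.06% in the Csf1r gate, 1.02% in the Cd79a gate, 0.951% in the C1qb gate and 0.635% in the S100a8 gate. Cells in no gate held 1.26%. The medians over cells were 1.25%, 0.951%, 0.914%, 0.940% and 0.392%. Over groups of at least 5 cells the medians ran from 0.982% to 1.504% in the Cd3e gate, from 0.691% to 1.37% in the Csf1r gate, from 0.712% to 1.13% in the Cd79a gate, from 0.580% to 1.03% in the C1qb gate and from 0.297% to 0.550% in the S100a8 gate. The medians of the S100a8 gate lay below those of all others, while the other 4 overlapped. The sums of the S100a8 gate ran from 0.477% to 0.757% and overlapped those of the C1qb gate, which began at 0.643%. The Cd3e gate was not highest in every sample: at day 3 the C1qb gate held 1.09% (32 cells) and the Cd3e gate 1.02% (7 cells), and at 6 hours the median was 1.37% in the Csf1r gate and 1.32% in the Cd3e gate. Of the 76 members read in 20% or more of the cells in some gate, the share of cells with a read was lowest in the S100a8 gate for 69 and highest in the Csf1r gate for 35 and in the Cd3e gate for 30. This count was not made over all genes, so it is no result about the set. Members also entered it through the gate where they are high, and the gates pool samples. Over all genes the S100a8 gate also lay below the Csf1r gate in CPM. The median log2 ratios were -0.70 in fresh cells of pool IM793 and -1.03 at 6 hours.

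The catalytic subunits of ATP synthase were highest in the Cd3e gate. Atp5b stood at 1640 CPM in the Cd3e gate, 1202 in Cd79a, 1008 in Csf1r, 930 in C1qb and 637 in S100a8. Atp5a1 stood at 1110, 747, 600, 506 and 235.6 CPM in the same order. Cox4i1 was more even, at 574, 421, 551, 545 and 435 CPM. Cox7a2l had 332 CPM in the Cd3e gate and between 48.2 and 170 in the others. These values pool samples in which the mix of gates differed, and within samples the order was not the same throughout: in fresh cells of pool IM793, Cox7a2l had 236.8 CPM in the C1qb gate (7 cells) and 165.7 in the Cd3e gate (9 cells). Sdhb had 39.8 CPM in the S100a8 gate and between 163.98 and 224.1 in the rest. Uqcrc1, a core protein of complex III, was highest in the C1qb gate at 495 CPM, followed by 413 in the Cd3e gate.

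The S100a8 gate was compared with the Csf1r gate in fresh cells of pool IM793, where both had enough cells. Its 21 cells held 0.757% of counts on the set with a median of 0.297%, and the 31 Csf1r-gated cells held 1.20% with a median of 1.08%. The log2 ratio was -0.66 for the members and the median over all genes that passed was -0.70. Of 73 members, 1 was past 2-fold higher (14.9% of all genes) and 29 lower (41.3% of all genes), with a members' median of -0.83, and 5 of the 29 passed the filter only through the Csf1r-gated cells. The median number of members read was 10 against 49, with median totals of 649346 and 714975 counts. Ndufc2 differed most downward, at 5.11 against 80.8 CPM, and Ndufs8, which carries iron-sulfur clusters of complex I, most upward, at 174.9 against 72.8 CPM. The S100a8 gate was not uniform: its 13 cells without another gate gene held 0.409% with a median of 0.199% and 8 members read, while the 8 cells that were also over the threshold for another gate gene held 1.26% with a median of 1.25% and 59.5 members read. With cells of 1 lineage only, the log2 ratio to the Csf1r gate was -1.52.

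At 6 hours the S100a8 gate was again below the others. Its 16 cells held 0.516%, against 1.34% in 19 Csf1r-gated and 1.39% in 19 Cd3e-gated cells, log2 ratios of -1.38 and -1.43, where the medians over all genes were -1.03 and -1.21. Against the Csf1r gate, 0 of 69 members were past 2-fold higher (17.8% of all genes) and 50 lower (50.8% of all genes). Of these 50, 40 were read in under 20% of the S100a8-gated cells and passed the filter only through the Csf1r-gated cells. Against the Cd3e gate, 1 of 65 was higher (20.2% of all genes) and 42 lower (53.3% of all genes), 35 of which passed only through the Cd3e-gated cells. These numbers lower are therefore largely set by the filter. The members' medians were -1.46 and -1.58. Over cells, the median share of the S100a8 gate was 0.354%, against 0.297% in fresh cells, and with cells of 1 lineage only the ratio to the Csf1r gate was -1.23, against -1.52 in fresh cells.

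Among lymphocytes, Cd79a-gated and Cd3e-gated fresh cells of pool IM834 held 0.944% (17 cells) and 1.20% (43 cells), a log2 ratio of -0.35. The median over all genes was -0.29 and that of the members -0.29. Past 2-fold were 4 of 73 higher (14.2% of all genes) and 14 lower (28% of all genes), 6 of which passed the filter only through the Cd3e-gated cells. Cox7a2l differed most downward, at 65.01 against 313 CPM, and Ndufb2 most upward, at 87.9 against 33.7 CPM. At day 2 in pool IM793 the shares were 1.16% (30 cells) and 1.47% (16 cells), so that the Cd3e gate was above the Cd79a gate in both pools.

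Within gates, the time course in pool IM793 ran in different directions. Csf1r-gated cells held 1.20% of counts on the set in fresh cells (31 cells), 1.34% at 6 hours (19 cells) and 0.787% at day 2 (14 cells), with medians of 1.08%, 1.37% and 0.735%. Cd3e-gated cells held 1.36% (9 cells), 1.39% (19) and 1.47% (16), with medians of 1.13%, 1.32% and 1.504%. The mix of gates differed as well: of fresh and day 2 cells, 21 and 1 were in the S100a8 gate, 0 and 30 in the Cd79a gate and 9 and 16 in the Cd3e gate. Without S100a8-gated cells the log2 ratio of day 2 to fresh over the pool was -0.15. The part of each in the sum of the pool, and the difference between the gates, was not tested. C1qb-gated cells, few in number, held 1.10% fresh (7 cells), 0.956% at 6 hours (3) and 0.746% at day 2 (6). Cd79a-gated cells went from 0.958% at 6 hours (8 cells) to 1.16% at day 2 (30), with 0 fresh cells.

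**Figure D5:**
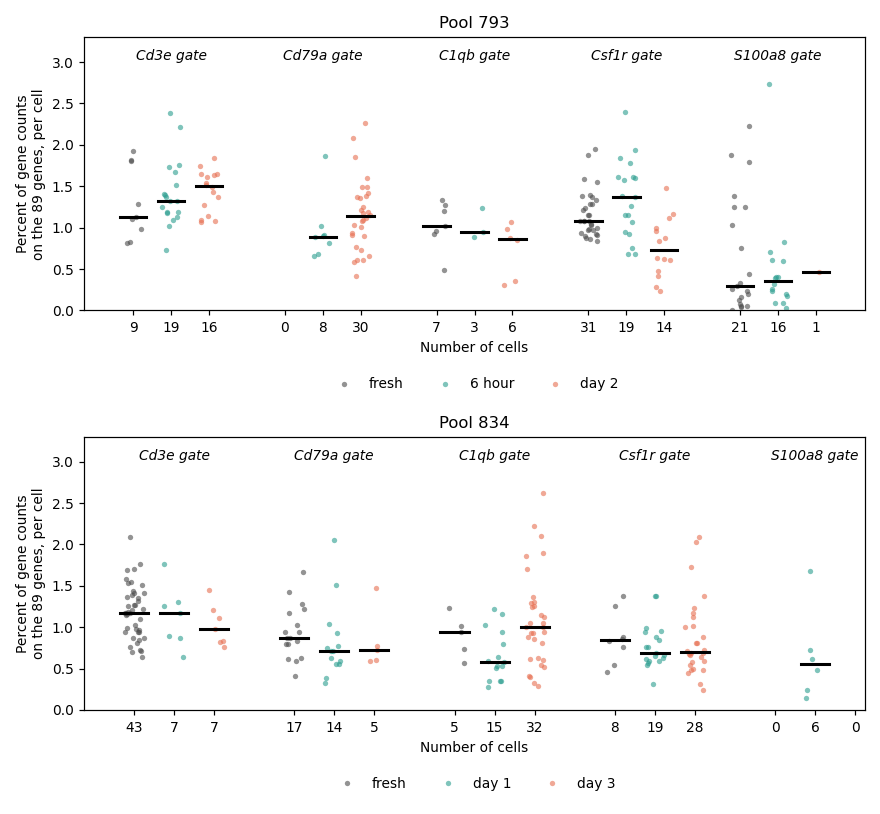
Percent of a cell's gene counts on the 89 genes by gate and timepoint, for pool IM793 (top) and pool IM834 (bottom), 1 point a cell with bars at the medians and the number of cells under each column. In pool IM793 the median of Csf1r-gated cells is lowest at day 2, at 0.735%, and that of Cd3e-gated cells highest at day 2, at 1.504%.

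In Csf1r-gated cells at day 2, 1 of 74 members was past 2-fold higher than in fresh cells (16.4% of all genes) and 31 were lower (32% of all genes), 7 of which passed the filter only through the fresh cells. The members' median was -0.90, and that of all genes -0.28. From 6 hours to day 2, 0 of 72 were higher (15.8% of all genes) and 39 lower (30.7% of all genes), 8 of which passed only through the 6 hour cells, with medians of -1.10 and -0.35. At 6 hours itself, 3 of 75 were higher (15.2% of all genes) and 3 lower (16% of all genes). By complex, the day 2 sums against fresh were -0.84 for complex I, -0.66 for complex V, -0.56 for complex IV, -0.42 for complex III and 0.08 for complex II. Ndufv3 was at 93.4 CPM in fresh cells and 125.3 at 6 hours, and at day 2 it had 2 counts in 2 of 14 cells, a ratio of fresh to day 2 of 599 with a counting interval of 165.6 to 4949. Atp5g3 was at 114.2 and 96.9 CPM and had 3 counts in 3 cells at day 2, a ratio of fresh to day 2 of 488 (166.8 to 2369). Cox7a2l went the other way, at 99.6, 304 and 220 CPM. The median number of members read was 49 in fresh cells, 44 at 6 hours and 25 at day 2, with median totals of 714975, 985071 and 1004200 counts. Over all cells of the groups, monocyte markers summed to 12757 CPM in fresh cells and 3256 at day 2, and C1q macrophage markers to 5003 and 8355. The part of a changed mix within the gate was not tested.

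In Cd3e-gated cells from 6 hours to day 2, 7 of 70 members were past 2-fold higher (14.7% of all genes) and 11 lower (20.4% of all genes), 3 of which passed only through the 6 hour cells, with a members' median of -0.03. Cox5b, subunit 5b of complex IV, was at 207.3 and 34.9 CPM and Ndufb9 at 150.9 and 27.5. Sdhc, a membrane anchor of complex II, was at 78.8 and 219.5 CPM and Atp5g3 at 93.002 and 245.6. Atp5g3 thus stood far lower at day 2 than at 6 hours in Csf1r-gated cells and higher in Cd3e-gated cells, in sums of 14 to 19 cells without replicates.

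In pool IM834 the Csf1r gate was lower than the Cd3e gate already in fresh cells, at 0.825% (8 cells) against 1.20% (43). It held 0.789% at day 1 (19 cells), 0.877% at day 3 (28) and 1.11% at day 4 (6). C1qb-gated cells held 0.886% fresh (5 cells), 0.643% at day 1 (15), 1.09% at day 3 (32) and 0.957% at day 4 (5). By their sums, day 3 and day 4 cells of both gates were above fresh cells of the pool, unlike day 2 cells in pool IM793, but the median of Csf1r-gated cells was 0.702% at day 3 and 0.840% in fresh cells, and these sums rest on few cells.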

How the data were processed

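Single cells were sorted into plates and their cDNA made by a procedure adapted from SmartSeq2, which uses no molecular identifiers. The authors deposited 1 table of read counts per gene and cell. By the study's methods, reads were trimmed to 75 bp with fastx_trimmer, depleted of duplicates with picard, aligned to GRCm38 with STAR and counted with HTSeq (intersection-strict, strand ignored), so reads of overlapping antisense genes cannot be told apart. Their versions are not stated in the sources used here. Of 46700 rows, 97 that name no gene (0.140% of counts) were left out. Near-identical copies can take reads of a member; 4 rows with dotted names that resemble members were not used and held 0 to 143 counts.

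Groups, pool numbers and times came from the labels. Within a group, the cells' counts were added up and scaled to CPM, and log2 ratios were taken with sums under 3 counts set to 3. Single genes needed a read in 20% or more of the cells of the 2 groups together, and a ratio past 2-fold was counted. Groups of fewer than 10 cells were not compared across all genes; values of single genes in gates are given from 5 cells on. With 1 sample a group, no test was made. Intervals are exact 95% ones (Clopper-Pearson for shares, Poisson or conditional binomial for counts). Cells were thinned to 100000 counts where stated. Exon lengths (88 of the 89 genes) came from GENCODE M21. Promoters came from RefSeq. The members, gene lists and gates were chosen with earlier results of these data known. Genes named are the core subunits, the paralog families, the 2 largest ratios each way per comparison, the most widely read gene per complex, genes with 0 counts, and the largest difference each way between gates in fresh cells; others past 2-fold, and those below fresh in all 5 comparisons, were named after their values were seen.

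Alternatives were other scalings (TMM from edgeR 4.0.16, size factors from DESeq2 1.42.0, mean log2 of rpm + 1), other filters and gates, thinning and pooled fresh cells. Leaving out the 6 names that are not subunits, S100a8-gated cells or cells under 100000 counts was chosen after seeing the data. A value counted as moved past 0.2 (sums) or 0.5 (genes) on the log2 scale. The calculation was tested on simulated data. Python 3.11.15, numpy 2.4.6, pandas 2.3.3, scipy 1.17.1, matplotlib 3.10.9 and R 4.3.3 were used.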

Additional observations from a re-analysis of the deposited data

How the results depend on the processing

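Of the recomputed log2 ratios of the summed members, 7 moved by more than 0.2 and a further 2 turned sign with both values over 0.05 from 0 and the larger over 0.2. With no such limit, the sign differed in 15 of the recomputed ratios between groups: at 6 hours with TMM (-0.11) and DESeq2 size factors (-0.08), at day 2 in 3 settings (0.02 to 0.31), from 6 hours to day 2 in 1 (0.07), at day 4 in 4 (-0.999 to -0.01), from day 3 to day 4 in 2 (-0.67 to -0.03) and between the fresh pools in 3 (-0.36 to -0.02). The directions of these ratios near 0 therefore depend on the scaling, the choice of fresh cells or, at day 4, on 1 cell. The day 1 value kept its direction under all settings tried, from -0.49 to -0.33. The mean over cells of log2(rpm + 1) of the summed members moved the sums most, to 0.31 for day 2 (where single members taken this way had a median of -1.45), -0.33 for day 3 and -0.999 for day 4 against fresh cells, and it turned the sign of day 4 against day 3 (-0.67) and of fresh cells of pool IM793 against pool IM834 (-0.36). TMM put day 2 at -0.23, and DESeq2 size factors put day 4 at 0.41 against fresh cells and 0.46 against day 3. In fresh cells of pool IM793, the S100a8 gate was at -1.52 against the Csf1r gate when cells over the threshold in more than 1 lineage were left out. Among the values of single genes, 37 moved by more than 0.5 and 4 turned sign: Atp5k at day 1 (-0.81) and Ndufb4 at day 3 (-0.68) against all fresh cells, and Ndufc2 at day 4 (-0.11) and Ndufv1 between the fresh pools (0.11) by mean log2(rpm + 1). The causes were not tested.

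Numbers of members past 2-fold over all settings ran from 1 to 21 at 6 hours, 2 to 57 at day 2, 1 to 24 from 6 hours to day 2, 3 to 11 at day 1, 3 to 18 at day 3, 28 to 46 at day 4, 22 to 40 from day 3 to day 4 and 13 to 43 between the fresh pools. Most of the highest numbers came from mean log2(rpm + 1), and all of their members were lower at 6 hours (21, against 24% of all genes), day 2 (57, 45.6%), from 6 hours to day 2 (24, 23.6%), day 3 (18, 28.3%) and day 4 (46, 56.8%). Between the fresh pools 41 were higher (35.9%) and 2 lower (9.26%). The 11 of day 1 were lower against all fresh cells (18.4% of all genes), and the 40 from day 3 to day 4, in cells with a read of Ptprc, were 18 higher and 22 lower (16.9% and 38.6%). From day 3 to day 4, TMM gave 15 higher and 12 lower of 62 members (13.2% and 26.1% of all genes). Leaving 18S rRNA and mitochondrially encoded genes out of the total gave 12 and 13 (12.1% and 26.9%). The median of all genes shifted by -0.17 at 6 hours and -0.21 at day 2 with TMM, and by 0.39 at day 4 and 0.34 from day 3 to day 4 with DESeq2. Without S100a8-gated cells the sums were 0.08 at 6 hours, -0.15 at day 2 and -0.36 at day 1.

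No paired analysis was carried out, because each timepoint of a pool is 1 sample and no test was made. For the same reason no replicate was left out. The spread between animals was not estimated, since no label names an animal and only fresh and day 4 cells occur in more than one pool, and the 19 cells of day 4 in pool IM834 limit every gene there.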

Other observations

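The 14 day 4 cells of pool IM790 and the 2 of pool IM793 had no fresh cells and too few cells to compare within their pools, respectively. In pool IM790 the members held 1.26% of counts, with a median of 1.01% and of 61.5 members read per cell at a median total of 1128170 counts. Ptprc was read in 85.7% of these cells and the mitochondrially encoded subunits held 1.15%. Atp5b stood at 2074 CPM, Cox4i1 at 624 and Uqcrc2 at 203.6 CPM, read in 7 of 14 cells. The 2 cells of pool IM793 held 1.16% on the members and 0.783% on the mitochondrially encoded subunits.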
